A study of Homo sapiens with 4 samples.

Results

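IL24, IL19, IL20 and the receptor genes IL22RA1, IL20RA, IL20RB, IL10RA and IL10RB were followed in PC3 cells, an established human prostate cancer line, in which the DNA repair enzyme ALKBH3 had been depleted with an shRNA. The members were all probes on the array whose transcript accession belongs to one of these 8 genes, which gave 9 probes of 34127, since IL24 has 2 and each other gene has 1. The group was selected on the log2 differences between the shRNAs, since IL24 and IL22RA1 had been seen to be higher with ALKBH3 shRNA, and these differences are given here as a description, without a test. RNA came from PC3 cells infected with lentivirus carrying ALKBH3 shRNA or, as control, an shRNA against GFP, and puromycin selection had followed for 48 h or 96 h. Each of the 4 combinations was hybridised to 1 single-colour Agilent array. An shRNA is thus repeated over 2 times of selection, and whether these were separate infections is not in the labels. Each slide held the 2 arrays of 1 time, and time and slide cannot be told apart. Which ALKBH3 shRNA was used is not in the labels either, and effects of the shRNA on other transcripts cannot be told apart from loss of ALKBH3.

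These genes form a cytokine circuit of epithelia. IL24, IL19 and IL20 are secreted cytokines of the IL-20 subfamily, made mostly by leukocytes and keratinocytes, while their receptors sit on epithelial cells. Receptors pair a long chain, IL20RA or IL22RA1, with a short chain: IL20RB completes the receptors of IL-19, IL-20 and IL-24, and IL10RB completes the receptors of IL-22 and, with IL10RA, of IL-10. Ligand binding activates JAK1 and TYK2 and then STAT proteins, mainly STAT3, and in epithelia switches on defence genes such as chemokines, S100 proteins and keratins. IL24 is also known as MDA-7, a protein that kills many cancer lines, prostate lines among them, when it is overexpressed.

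The promoters of IL24 and IL22RA1 are shown because these were the 2 members with the largest differences between the shRNAs. Both run 5′ to 3′ over the 250 bases before the gene's start, taken from RefSeq on GRCh38.p14, and capitals mark the matches to the motifs searched. IL24 lies on the plus strand at chr1:206897193-206897442, and IL22RA1 on the minus strand at chr1:24143141-24143390.
IL24: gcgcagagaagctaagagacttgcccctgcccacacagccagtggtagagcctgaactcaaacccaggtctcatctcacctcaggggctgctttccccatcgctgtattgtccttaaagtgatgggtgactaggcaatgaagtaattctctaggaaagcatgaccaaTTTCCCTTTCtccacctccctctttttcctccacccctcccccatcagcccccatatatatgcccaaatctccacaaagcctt
IL22RA1: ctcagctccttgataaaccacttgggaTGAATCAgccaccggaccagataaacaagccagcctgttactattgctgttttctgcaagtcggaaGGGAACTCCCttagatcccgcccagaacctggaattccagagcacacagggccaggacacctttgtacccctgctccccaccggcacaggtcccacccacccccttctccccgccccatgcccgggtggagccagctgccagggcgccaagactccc

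In the IL24 window the match is to the interferon response element, searched as GAAA, any 2 bases and GAAA again, on the opposite strand and beginning 83 bases before the start. This motif occurs in 3.02% of 35116 promoter windows of the same length. In the IL22RA1 window a match to the AP-1 pattern, searched as TGANTCA with any base at N, begins 223 bases before the start. This match has A at N. A match to the NF-kB consensus begins 157 bases before the start. The AP-1 pattern, with any base at N, occurs in 6.57% of all windows and the NF-kB motif in 5.21%. Both strands were searched, also for the cyclic AMP element TGACGTCA (1.65% of windows), the STAT element TTCNNNGAA (6.57%) and TATAAA (10.7%), none of which is in either window. Among the other members, an AP-1 motif is in 1 window each of IL19 and IL10RA, TTCNNNGAA in the other IL19 window, and TATAAA in 1 window each of IL20 and IL20RA, while IL20RB and IL10RB hold none of the 6. A match describes letters in the window and does not show that a factor binds there.

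Arrays were comparable in depth of signal. The 75th percentile of intensity ran from 2150 to 2394, between 67.0% and 70.9% of probes were well above background by the image software's own flag, and the median of the negative control spots was between 4.84 and 6.80. The labels were checked with ALKBH3 itself: at probe A_23_P35989, log2 intensity was lower with ALKBH3 shRNA at both time points, with differences of -2.03 at 48 h and -2.07 at 96 h. At its other probe, A_33_P3225250, the differences were -1.74 and -1.51. All 5 epithelial markers looked at (EPCAM, CDH1, KRT8, KRT18 and KRT19) were well above background on all 4 arrays, while KLK3, a marker of luminal prostate cells, was on none. The 6 leukocyte markers were above background on all arrays in at least 1 probe. Among these, intensities were at most 101 for PTPRC, 68.7 for CD3E and 94.3 for ITGAM, from 249 to 308 for CD14 and from 1010 to 1645 for CD68, a lysosomal protein. EPCAM, the epithelial adhesion molecule, moved with the shRNA, with intensities of 15718 and 12423 in the control and 32599 and 25203 with ALKBH3 shRNA. CDH1 was also higher with ALKBH3 shRNA, by log2 differences of 0.90 at 48 h and 0.58 at 96 h, though its groups overlapped. The keratins did not share this: mean log2 differences were 0.03 and 0.17 at the probes of KRT8, -0.08 and -0.07 for KRT18 and -0.18 for KRT19. The part of EPCAM and CDH1 in the results below was not tested.

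Of the 9 member probes, 5 (IL19, IL22RA1, IL20RA, IL20RB and IL10RB) were well above background on all 4 arrays, 1 probe of IL24 was on 3 arrays, and the second IL24 probe, IL20 and IL10RA were on none. The 6 probes seen with at least 1 shRNA at both times could be compared. Among these, ALKBH3 shRNA and control arrays did not overlap for IL24, IL22RA1 and IL20RB, all higher with ALKBH3 shRNA. For all genes tested the share without overlap was 36.4% in either direction and 17.4% in the higher direction, and nothing is read from the members' count, since this contrast chose them. Values are log2 intensities relative to the 75th percentile of each array unless stated as intensities, and 1 probe's level is not compared with another's.

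**Figure D1:**
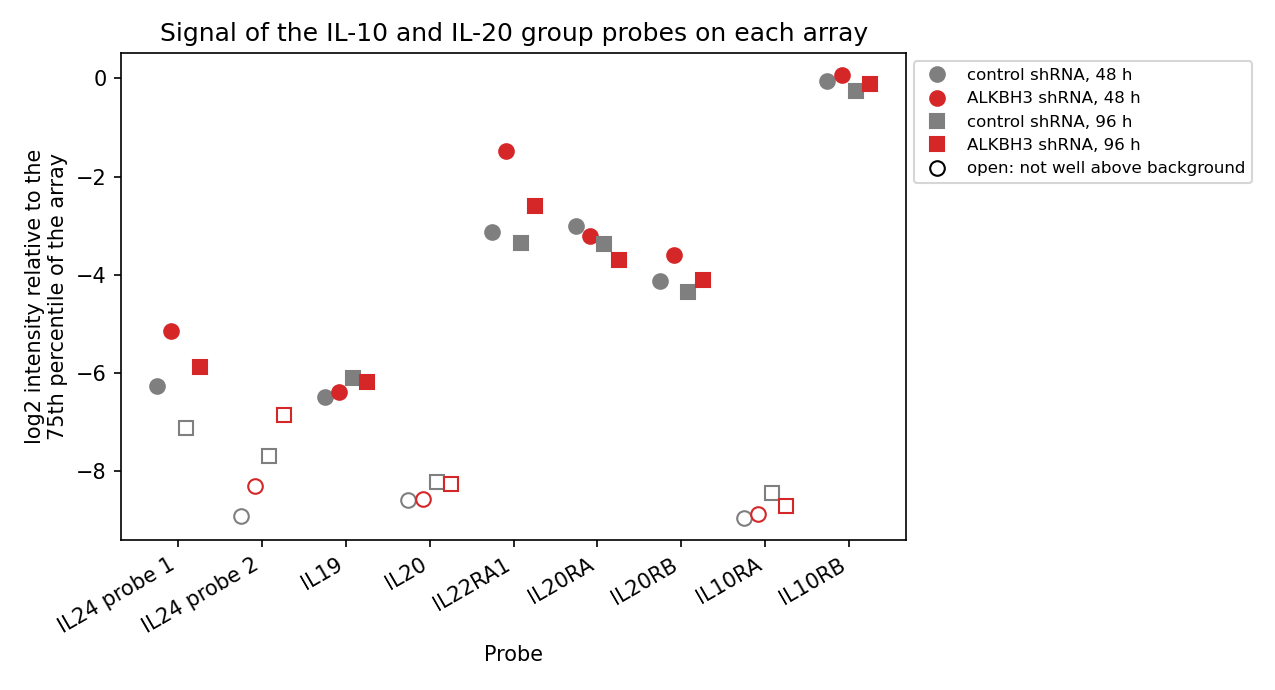
Log2 intensity of each of the 9 member probes relative to the 75th percentile of its array, with grey symbols for control shRNA, red for ALKBH3 shRNA, circles for 48 h and squares for 96 h; open symbols were not well above background. Both red symbols lie above both grey ones for IL24 probe 1, IL22RA1 and IL20RB, while all symbols of IL20 and IL10RA are open.

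IL24, a ligand of both IL20RB-containing receptors, was dim in PC3 cells. At probe A_33_P3232692 its intensity was 27.8 in the control and 64.6 with ALKBH3 shRNA at 48 h, then 16.9 and 40.5 at 96 h, against negative control spots whose 95th percentile was between 5.66 and 8.73. On the log2 scale the levels were -6.28, -5.14, -7.11 and -5.89. Both ALKBH3 shRNA arrays were above both control arrays, and the order from the top was ALKBH3 shRNA at 48 h, ALKBH3 shRNA at 96 h, control at 48 h and control at 96 h. Signal was 2.19-fold higher with ALKBH3 shRNA at 48 h. The 96 h control array was not well above background, so only 1 of the 2 control arrays measured the gene, and at 96 h the fold is at least 1.53, with the signals read as given standing 2.34-fold apart. The log2 difference averaged 1.18, with an SD of 0.067 over the 2 time points, both with the 96 h control signal taken as given although it is only a bound.

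How far a single spot can be trusted at this brightness was taken from other probes that are printed several times on each array. Around the level of IL24 the SD between such spots was 0.146 to 0.461 on the log2 scale, which gives 1 IL24 difference a spot error of 0.315 at 48 h and 0.544 at 96 h. Each difference was larger than its spot error, but IL24 was picked for a large difference, so nothing is read from this. The levels of -5.89 (ALKBH3 shRNA, 96 h) and -6.28 (control, 48 h), neighbours in the order, were closer than the largest of these SDs. The spot error holds the array's own noise only and leaves out differences between infections or RNA extractions. IL24's second probe, A_33_P3290780, gave intensities of 4.48 and 7.18 at 48 h and 11.3 and 20.7 at 96 h, none well above background, so the second probe measures no IL24 difference here.

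The size of the IL24 difference depended on how background was handled and on single arrays. It was 0.25 with the normexp background model and 0.45 in the log2 values normalized by the authors. The bound given for 96 h was set on the reported scale and does not carry over to these values. Without the 96 h control array, the one not above background, it was 0.76.

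For the other ligands of the subfamily no difference beyond the spot error was measured. IL19, a keratinocyte and monocyte cytokine, had intensities of 23.9 and 27.3 at 48 h and 34.2 and 33.1 at 96 h in control and ALKBH3 shRNA cells. Its log2 differences of 0.11 and -0.08 were smaller than their spot errors of 0.409 and 0.447, and the groups overlapped. IL20, which drives keratinocyte growth, was at 5.58 and 6.01 at 48 h and 7.78 and 7.76 at 96 h, close to the negative controls on every array. Any IL20 difference was therefore not detectable at this signal.

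IL24, IL19 and IL20 lie next to each other with IL10 on chromosome 1, and the rest of this cluster was read alongside. IL10, a cytokine that dampens inflammation, differed by 0.31 at 48 h and 0.37 at 96 h (limma adjusted p = 0.872 over all genes). FCMR, the IgM Fc receptor gene on the other side of IL24, differed by 0.54 and 0.67 (limma adjusted p = 0.613). In order along the chromosome the mean log2 differences of the genes tested were 0.34 for IL10, 0.01 for IL19, 1.18 for IL24 and 0.60 for FCMR. IL24 was picked for its difference, and its 96 h control signal is only a bound. Nothing is therefore read from its place among these neighbours.

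IL22RA1, the long receptor chain for IL-22 and, with IL20RB, for IL-20 and IL-24, stood clear of background on all 4 arrays. Its intensity was 245 in the control and 826 with ALKBH3 shRNA at 48 h, then 229 and 395 at 96 h. The log2 levels were -3.13, -1.47, -3.35 and -2.60. The 2 control arrays lay close together while the 2 ALKBH3 shRNA arrays lay apart, the 48 h array being the highest of the 4. The gene was 3.17-fold higher at 48 h and 1.68-fold higher at 96 h. These are log2 differences of 1.66 and 0.75 with spot errors of 0.115 and 0.122. Each was larger than its spot error, but IL22RA1 was picked for a large difference, so nothing is read from this.

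The mean log2 difference of IL22RA1 was 1.21 with an SD of 0.65 over the 2 time points. The differences of IL22RA1 at the 2 time points were 0.91 apart, which is more than either spot error, but with 1 array per shRNA and time point the change over time has no replicate check. Leaving out the 48 h ALKBH3 shRNA array lowered the mean difference to 0.64, below 2-fold, and leaving out the 96 h one raised it to 1.77.

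**Figure D2:**
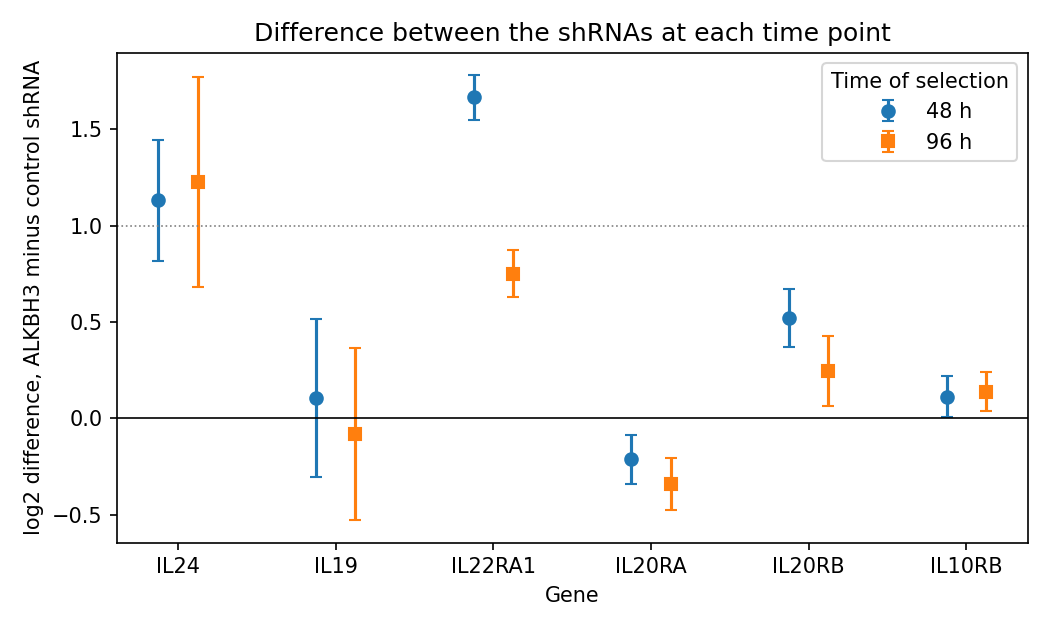
Log2 difference of ALKBH3 shRNA from control shRNA at 48 h (blue circles) and 96 h (orange squares) for the 6 member probes above background, with bars of 1 spot error and a dotted line at 2-fold. IL24 lies at 1.13 and 1.23 with wide bars, IL22RA1 falls from 1.66 to 0.75 with narrow ones, and the other 4 genes lie between -0.34 and 0.52.

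The other long chain, IL20RA, had lower signal with ALKBH3 shRNA at both time points. Its intensity was 268 and 246 at 48 h and 227 and 183 at 96 h in control and ALKBH3 shRNA cells, giving log2 differences of -0.21 and -0.34 with spot errors of 0.125 and 0.136. The groups overlapped, since the ALKBH3 shRNA array at 48 h (-3.22) was above the control at 96 h (-3.36). IL20RB, the short chain that both IL20RA and IL22RA1 can use, had intensities of 123 and 188 at 48 h and 114 and 138 at 96 h. Its differences were 0.52 and 0.24, with spot errors of 0.151 and 0.181. The groups did not overlap, but the ALKBH3 shRNA array at 96 h and the control array at 48 h had the same log2 level of -4.12 to 2 decimals.

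Of the chains that bind IL-10, 1 was measured and it differed little. IL10RB, which serves the receptors of IL-10, IL-22, IL-26 and the type III interferons, had intensities of 2086 and 2397 at 48 h and 1973 and 2223 at 96 h. Its log2 differences of 0.11 and 0.14 were about as large as their spot errors of 0.106 and 0.101. A readthrough transcript joins IL10RB to its neighbour IFNAR2 in the annotation, and the 2 transcripts may not be separated by this probe. IFNAR2 differed by -0.03 and 0.06, and IFNAR1 on the other side by -0.15 and 0.01. IL10RA, the ligand-binding chain of the IL-10 receptor and mainly a leukocyte gene, was at 4.34 and 4.87 at 48 h and 6.74 and 5.74 at 96 h, never well above background. Of the receptor for IL-10 the signal therefore showed the shared chain only.

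IL22RA1 lies beside IFNLR1 on chromosome 1, which encodes the interferon lambda receptor and also pairs with IL10RB. IFNLR1 log2 levels were -0.74 in the control and -0.15 with ALKBH3 shRNA at 48 h, then -1.46 and -0.64 at 96 h. The differences of 0.59 and 0.82 did not pass the 2-fold cutoff. In the limma comparison of the shRNAs the adjusted p was 0.664, and it was 0.0423 with the time point as a block. These values are of the brightest IFNLR1 probe. The other probes of the gene, also above background on all arrays, had mean log2 differences of 0.65 and 0.30. MYOM3, a muscle gene on the other side of IL22RA1, was too dim to be tested, and SRSF10, a splicing factor beyond it, differed by -0.09 and 0.05.

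Change with time of selection played no part in choosing the genes and could be tested over all probes, with shRNA as a second term. None of the 6 member probes tested passed both 2-fold and an unadjusted p below 0.05, against 1.34% of 23274 probes. At an unadjusted p below 0.05 alone there were 5 of the 6, against 33.3% of all probes, and after adjustment over all probes 1 of the 6, against 10.8%. That 1 was IL24, which was lower at 96 h by a log2 difference of -0.79 (SE 0.086, limma adjusted p = 0.0260), from -0.84 in the control and -0.74 with ALKBH3 shRNA. The second IL24 probe, not above background on any array, went the other way, with 1.22 in the control and 1.46 with ALKBH3 shRNA. As the 96 h control array was not above background, the control part of this fall ends at a signal that is not a measured level. IL24 met the signal filter for this test only through its 48 h arrays, where it was higher. The filter thus favoured a fall, and nothing is read from IL24 being the 1 of 6. The call was lost with the normexp background model (-0.25, adjusted p = 0.0958), without the filter on dim probes (adjusted p = 0.160) and without the shRNA term (adjusted p = 0.494). Without that term 0 of all 23274 probes passed adjustment, so this last loss is not particular to IL24. The error of this fit comes from how far the differences between the shRNAs at the 2 time points lie apart, and IL24 had been picked with those differences known.

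Of the receptors, 4 of 4 tested had lower signal at 96 h with both shRNAs, without passing adjustment. The share of all probes lower with both shRNAs is not given here, so this count is a description. Over all genes the changes with time in control and ALKBH3 shRNA cells had a correlation of 0.703. IL22RA1 had a log2 difference of -0.68 (SE 0.23, limma adjusted p = 0.125), made up of -0.22 in the control and -1.13 with ALKBH3 shRNA. The IL20RA difference was -0.43 (limma adjusted p = 0.0528), that of IL20RB -0.38 (limma adjusted p = 0.0883) and that of IL10RB -0.19 (limma adjusted p = 0.194). With the normexp background model or the authors' normalized values, IL22RA1 passed adjustment, at -0.64 and -0.66, and IL20RA passed at -0.43 when only probes above background on all arrays were tested (adjusted p = 0.0319). IL19 was the exception, with signal higher at 96 h by 0.30 (limma adjusted p = 0.106), though it was -0.02 in the authors' normalized values. The median over the 6 members was -0.40, against 0.01 over all probes tested.

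**Figure D3:**
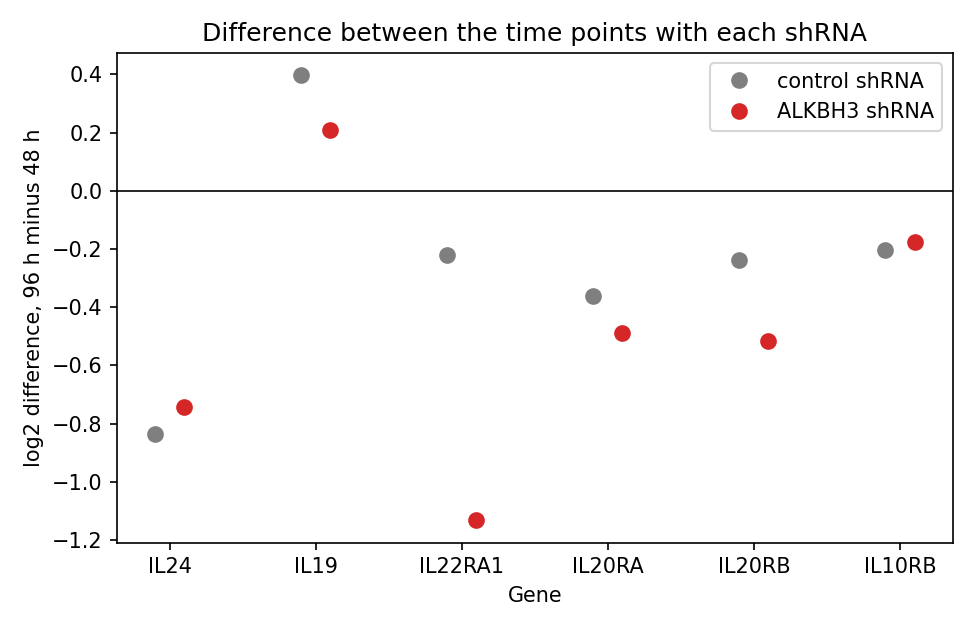
Log2 difference between 96 h and 48 h for the 6 member probes tested, in control cells (grey) and with ALKBH3 shRNA (red), 1 array per point. Points lie below 0 for 5 genes with both shRNAs and above 0 for IL19, and the 2 shRNAs stand furthest apart for IL22RA1, at -0.22 and -1.13.

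The other genes of the pathway were read from 5 lists of 56 genes that hold no member: further cytokines of the family, further receptors of the same class, signalling genes, epithelial target genes, and stress genes linked to IL24. Of these, 42 met the signal filter and were tested, and 12 were on no array. Called genes were at least 2-fold apart with an unadjusted p below 0.05. By this rule 3 of the 42 were higher with ALKBH3 shRNA, against 1.04% of 14556 genes tested, and 0 were lower, against 0.234%. At an unadjusted p below 0.05 there were 7 of 42, against 8.33% of all genes, and after limma adjustment over all genes there were 0, as in all genes, where the smallest adjusted p was 0.0673. With the time point as a block, 4 of the 42 were called higher, against 1.33% of all genes, and 6 of the 42 passed adjustment, all higher (CCL20, PI3, KRT6A, BIK, ATF3 and IFNLR1), against 2.96% of all genes higher. The median log2 fold change was 0.22 over the 42, and 0.00 over all genes. CCL20, REG1A and KRT6A met the signal filter only through the ALKBH3 shRNA arrays, where they were higher, so the filter favoured higher values for them. These lists were put together with results of the arrays known, so the counts are a description.

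**Figure D4:**
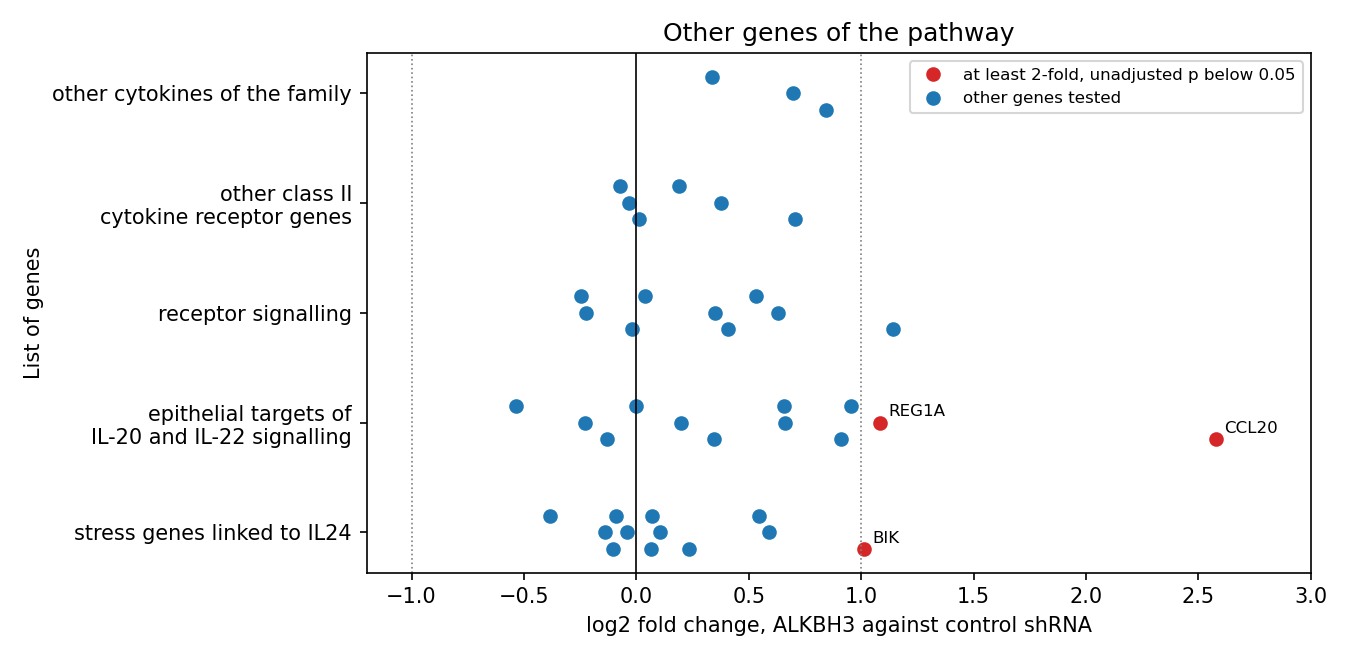
Log2 fold change of ALKBH3 against control shRNA for the 42 pathway genes tested, 1 point per gene, in rows by list, with dotted lines at 2-fold. The 3 red points (CCL20, REG1A and BIK) passed 2-fold with an unadjusted p below 0.05.

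In the cytokine list, 3 of 6 genes could be tested and 0 were called, with a median log2 fold change of 0.70. The type III interferon gene IFNL1 had a log2 fold change of 0.85, from 1.09 at 48 h and 0.60 at 96 h (limma adjusted p = 0.486). Its 96 h control array was not well above background. IFNL2, a close copy of IFNL3 whose probe may also read it, had a log2 fold change of 0.70, nearly all of it from 48 h (1.32, against 0.08 at 96 h). IL22, the main ligand of IL22RA1, IL26 and IFNL3 were not well above background on any array. So the array showed signal for the receptor chain IL22RA1 and none above background for its main ligand.

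In the receptor list, 6 of 7 genes were tested, 0 were called, and the median was 0.10. IFNLR1 had the largest log2 fold change, 0.71, followed by the tissue factor gene F3 at 0.38 and the interferon gamma receptor chain IFNGR1 at 0.19. IL22RA2, the soluble decoy for IL-22, was on no array.

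In the signalling list, 9 of 12 genes were tested, 0 were called, and the median was 0.35. The feedback inhibitors CISH and SOCS1, which STAT signalling switches on, had log2 fold changes of 0.63 and 0.53. The kinase JAK1, which couples to the long chains, had a log2 fold change of -0.02. STAT3, the main carrier of the IL-22 and IL-20 signal, STAT5A and STAT5B were not well above background on any array. PC3 cells are known to lack the STAT3 locus.

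In the list of epithelial targets, 12 of 18 genes were tested, 2 were called, both higher, and the median was 0.50. CCL20, a chemokine that epithelia release on IL-17 and IL-22 stimulation and on NF-kB activity, had intensities of 7.20 in the control and 64.4 with ALKBH3 shRNA at 48 h, then 6.10 and 26.5 at 96 h. It stood clear of background on both ALKBH3 shRNA arrays and on neither control array, which makes it at least 1.81-fold higher (limma adjusted p = 0.348, and 0.0294 with the time point as a block). The CCL20 call was lost with the normexp background model, at 0.59 on the log2 scale, which lies below the bound. REG1A, a secreted regenerating protein, had 18.3 and 29.8 at 48 h and 14.5 and 43.6 at 96 h, again only above background with ALKBH3 shRNA. This makes it at least 1.58-fold higher (limma adjusted p = 0.403). CCL20 and REG1A met the signal filter only through the ALKBH3 shRNA arrays, where they were higher. The filter thus favoured a higher call for both. The REG1A call was lost without the 96 h control array (0.85 on the log2 scale), without the 96 h ALKBH3 shRNA array (0.84), with quantile normalization (0.90), with normexp (0.22) and in the authors' values (0.47), and the last 2 lie below the bound. S100A9, a subunit of calprotectin, had a log2 fold change of 0.96 without being called, from 0.50 at 48 h and 1.41 at 96 h. Its 96 h control array was not well above background, and at 96 h the fold is at least 1.03. The S100A9 log2 fold change was 0.16 with normexp and 0.36 in the authors' values. PI3, the protease inhibitor elafin, and KRT6A, a wound keratin, had log2 fold changes of 0.91 and 0.66, and were named because they passed adjustment with the block. KRT6A was dim, with intensities from 31.7 to 58.5, and its 96 h control array was not well above background.

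In the list of stress genes, 12 of 13 were tested and 1 was called, with a median of 0.07. BIK, a BH3 protein that promotes apoptosis, had log2 levels of -2.14 and -1.17 at 48 h and -1.96 and -0.91 at 96 h in control and ALKBH3 shRNA cells. Its log2 fold change was 1.01 (SE 0.15, limma adjusted p = 0.330, and 0.0264 with the time point as a block). BIK stood just over 2-fold, and it fell below in 5 of 12 other settings: without the 48 h control array (0.92) or the 96 h ALKBH3 shRNA array (0.88), and by a little with quantile normalization, centring on the median (0.98) and normexp (0.99). The stress factors ATF3 and GADD45B had log2 fold changes of 0.59 and 0.55 and were not called. The value for ATF3 is that of its brightest probe. Its other probes, also above background on all arrays, gave 0.67, 0.05 and 0.20.

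Genes whose pattern over the 4 arrays was nearest to that of IL24 and IL22RA1 were sought among 14447 genes, by the Euclidean distance between log2 profiles centred on each gene's own mean. Nearest to IL24 were TMT1A, a thiol methyltransferase (distance 0.067), ST8SIA4, a polysialyltransferase (0.098), and SLC16A5, a monocarboxylate transporter (0.120). TMT1A had log2 levels of -2.21, -1.15, -3.04 and -1.88 in the order given for IL24, so it was higher with ALKBH3 shRNA and lower at 96 h, with its signal clear of background on each of the 4 arrays. Nearest to IL22RA1 were CYP2J2, an arachidonic acid epoxygenase (0.077), PATL2, an RNA-binding protein (0.102), and MUCL1, a small mucin (0.120). CYP2J2, printed 10 times on each array, had -2.52, -0.96, -2.81 and -2.04, with the same wide gap between the shRNAs at 48 h and the narrower one at 96 h. The distance between IL24 and IL22RA1 themselves was 0.52. With 4 arrays and 14447 candidates, these names are a description.

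**Figure D5:**
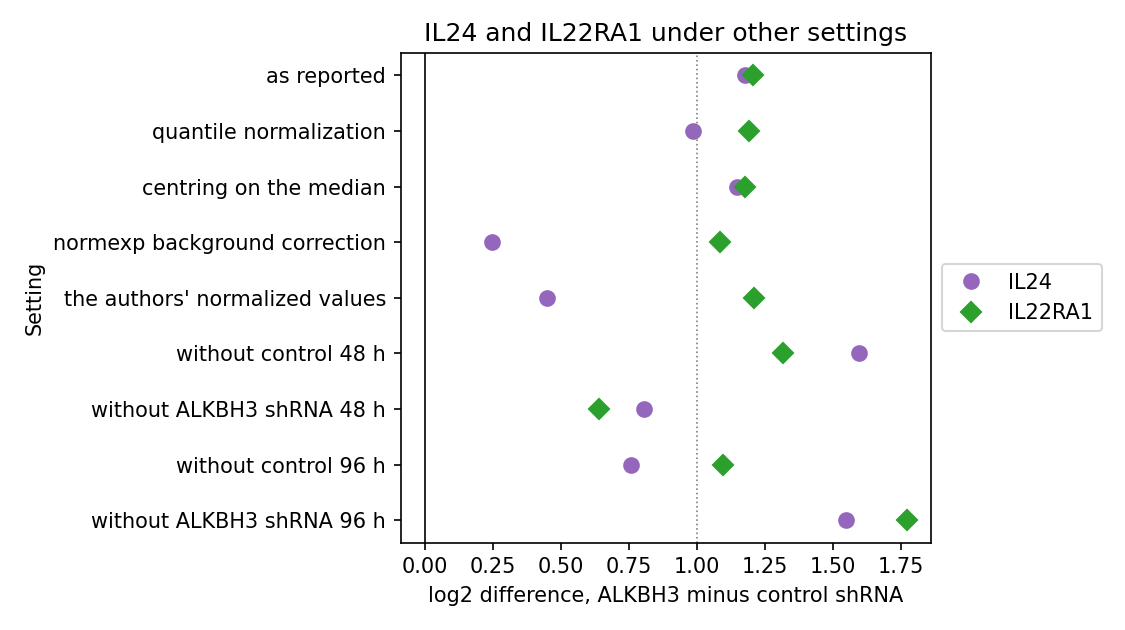
Log2 difference of ALKBH3 from control shRNA for IL24 (purple circles) and IL22RA1 (green diamonds) as reported, under 4 other ways of scaling or background correction, and without each array in turn, with a dotted line at 2-fold. Points of IL24 run from 0.25 to 1.60 and those of IL22RA1 from 0.64 to 1.77, all above 0.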

How the data were processed

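RNA of 4 PC3 cultures was measured on 4 single-colour Agilent arrays on 2 slides, 1 array for each shRNA and time point. The authors deposited spot intensities from Agilent Feature Extraction (version 10.7.3.1 in the file headers), already background-subtracted and not normalized between arrays. The authors also deposited log2 values, normalized across arrays by limma, used as an alternative. The files carry no gene names for spots, so probes were named through their transcript accession and the RefSeq annotation of GRCh38.p14. Of the probes, 24910 were named and 9217 were not. Where in its transcript a probe lies was not analysed here.

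Control spots and spots marked as outliers (180 to 379 an array, none of them a member's) were removed, and log2 intensities were centred on each array's 75th percentile. A probe was tested for shRNA if well above background (at least 0.5 of its spots) on both arrays of at least 1 shRNA, and for time if on both arrays of at least 1 time point; the probe with the highest mean stood for its gene. Tests used limma 3.58.1 (lmFit, eBayes, Benjamini-Hochberg over all genes or probes tested) in R 4.3.3 with the data.table package (1.17.8). Calls took at least 2-fold and an unadjusted p below 0.05. For a group below background on both arrays, the bound used the lowest signal well above background on each array. Arrays with the same time point share a slide, and the changes from 48 h to 96 h in control and ALKBH3 shRNA cells had a correlation of 0.703 over genes. The calls were tested on simulated data.

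The text names the members, ALKBH3, the called genes and the 3 largest changes in each list, and the 3 genes nearest to IL24 and to IL22RA1, apart from items that are not reported here. FCMR, IFNAR1, IFNAR2, MYOM3, SRSF10, JAK1, PI3 and KRT6A were named outside this rule after their values were seen. The members and lists were chosen with earlier results of these data known. Alternatives were quantile normalization, centring on the median, normexp (offset 50), the authors' values, other filters on dim probes, the mean over a gene's probes, the time point as a block, and leaving out each array. The number of arrays limits the precision.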

Additional observations from a re-analysis of the deposited data

Results flagged for a closer look

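The IL19 difference changed sign between the time points. It was 0.11 at 48 h and -0.08 at 96 h on the log2 scale, 0.19 apart, with 1 array per shRNA at each time point. The difference between the time points was not tested, and both values were smaller than their spot errors of 0.409 and 0.447.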

How the results depend on the processing

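IL24 and IL22RA1 kept a higher value with ALKBH3 shRNA under all settings that gave one, 9 for IL24 and 10 for IL22RA1. IL24's difference of 1.18 became 0.99 with quantile normalization, 0.25 with normexp and 0.45 in the authors' values, and ran from 0.76 to 1.60 with 1 array left out; IL22RA1 ran from 0.64 to 1.77. IL19 kept its sign in 6 of 10 settings. Pathway genes called higher, 3 as reported, were 1 with quantile normalization, 0 with normexp, 1 with probes above background on all arrays and 5 without a filter, and ran from 2 to 6 with 1 array left out (6 if the 48 h control array was dropped, 5 if the 96 h ALKBH3 shRNA array was). Genes called lower ran from 0 to 1, with 1 without either control array. Without a filter, 1 member probe passed the time call: the second IL24 probe, below background on all arrays, was higher at 96 h by 1.34, opposite to the first. IL19's change with time was -0.025 in the authors' values.

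The time point as replicate block raised pathway genes called higher from 3 to 4 and those passing adjustment from 0 to 6, and all genes passing adjustment and higher from 0 to 431. Over all genes, 151 higher and 34 lower calls became 62 and 22 with normexp, 88 and 32 in the authors' values, 100 and 31 with probes above background on all arrays, and 276 and 56 without a filter; with 1 array left out they ran from 149 to 381 higher and from 30 to 89 lower. Leaving out an array gave no value for the time comparison, which then has no residual degrees of freedom, and IL24 has no value with probes above background on all arrays. IL20, IL10RA and the second IL24 probe were above background on no array, and the first IL24 probe was on 3. The cause of these shifts was not tested.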
